A study of Mus musculus with 4 samples.

Results

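The interferon regulatory factors are a family of transcription factors whose genes are named Irf in the mouse. The 8 members described here, Irf1, Irf2, Irf3, Irf4, Irf5, Irf7, Irf8 and Irf9, were taken by symbol, and all 8 were found in both tables, out of 10663 genes of the DSS experiment and 23259 of the vector experiment. RNA was sequenced in 2 separate experiments with 1 library per group, 4 libraries in all. The first set regulatory T cells (Treg) from mice that drank 3% dextran sulfate sodium (DSS) for 7 days against Treg of untreated mice. DSS is a polymer that injures the gut lining and causes colitis. Both libraries came from the spleen of Balb/c mice that report Foxp3 through human CD2 on the cell surface, and human CD2 positive cells were purified. The second set naive CD4 T cells transduced with a Sox12 vector against such cells transduced with a mock vector, both from wild-type C57BL6 mice. No source used here gives the number or age of the animals or the time in culture. Since each group is 1 library, no test was possible, and each difference is between those libraries.

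All members bind DNA through a shared domain with a tryptophan repeat, which recognises GAAA repeats such as those of the interferon-stimulated response element (ISRE). IRF3 and IRF7 are held inactive in the cytoplasm until sensors of viral nucleic acid lead to their phosphorylation, after which they induce type I interferon. IRF9 is the part that recognises DNA in the complex ISGF3, which carries the signal of type I interferon to the ISRE. IRF1 is induced by interferon-gamma through a gamma-activated site (GAS) in its promoter, and IRF2 competes with it for the same DNA. IRF4 is induced by T cell receptor signals and is needed by effector T cells and effector Treg. IRF8, its closest relative, is best known from myeloid cells and B cells.

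The DNA before the starts of 4 members is shown because these genes are the ones on which the results below turn or against which they are read, and because their own promoters differ in the letters that such factors recognise. Sequences are from RefSeq, build GRCm38.p6, which is not the build of the tables, and run from 250 bases before an annotated start to the start. Capitals mark each match to the ISRE core (GAAA, any 2 bases, GAAA) or to the GAS (TTCNNNGAA), searched on both strands. Irf1 is at chr11:53769764-53770013 on the plus strand, Irf2 at chr8:46739495-46739744 on the plus strand, Irf7 at chr7:141266425-141266674 on the minus strand and Irf8 at chr8:120736108-120736357 on the plus strand.
Irf1: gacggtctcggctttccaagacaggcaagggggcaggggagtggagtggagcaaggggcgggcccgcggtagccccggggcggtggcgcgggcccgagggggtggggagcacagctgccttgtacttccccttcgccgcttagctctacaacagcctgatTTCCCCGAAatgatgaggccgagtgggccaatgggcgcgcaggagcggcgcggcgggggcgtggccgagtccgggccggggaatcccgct
Irf2: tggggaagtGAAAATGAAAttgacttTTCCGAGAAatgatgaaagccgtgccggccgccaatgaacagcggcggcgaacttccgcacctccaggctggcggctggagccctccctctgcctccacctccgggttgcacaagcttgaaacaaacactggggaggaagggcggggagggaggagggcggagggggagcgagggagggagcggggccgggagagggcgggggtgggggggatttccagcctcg
Irf7: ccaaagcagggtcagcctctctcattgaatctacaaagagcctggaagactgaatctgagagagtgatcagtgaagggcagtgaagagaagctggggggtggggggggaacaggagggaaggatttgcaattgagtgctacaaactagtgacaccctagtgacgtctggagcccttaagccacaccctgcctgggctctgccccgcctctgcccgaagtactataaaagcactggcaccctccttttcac
Irf8: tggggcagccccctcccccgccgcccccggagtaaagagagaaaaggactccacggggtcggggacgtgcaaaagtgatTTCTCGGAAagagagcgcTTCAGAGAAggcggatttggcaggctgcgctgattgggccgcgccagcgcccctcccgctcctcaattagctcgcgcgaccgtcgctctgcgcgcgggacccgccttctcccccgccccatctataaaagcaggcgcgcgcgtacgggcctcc
Windows from 250 bases before to 50 bases after a start were found for all 8 members, 11 windows in all. Irf1 and Irf8 each have another window, not printed above, with no match to the ISRE core or the GAS. The GAS letters stood in windows of 3 members, at base -90 of Irf1, base -224 of Irf2 and bases -171 and -153 of Irf8, and in 8.30% of all 32851 mouse windows. The ISRE core stood in a window of 1 member, at base -241 of Irf2, and in 3.44% of all windows. The core ACAAAG of Sox factors stood in windows of Irf7 and Irf9 and in 18.7% of all windows. Irf3, Irf4 and Irf5 held none of these letters in their windows. A match is a run of letters and not a measured site.

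The treatment note of the untreated Treg library also names DSS, so both Treg groups were taken from the sample titles, and the checks given here do not tell these 2 groups apart. Levels are in FPKM, the fragments of a gene scaled by its transcript length and by the fragments of the library. Sox12 had 829 FPKM with the Sox12 vector and 1.56 FPKM with the mock vector, as their labels have it. In Treg Sox12 had 1.52 FPKM after DSS and 0.715 FPKM without, a ratio of 2.12. Both of these values are low and were not used as a check of the labels. Foxp3, the defining factor of Treg, had 84.9 FPKM in DSS Treg and 88.2 FPKM in untreated Treg. The 8 T cell markers summed to 2208 FPKM in DSS Treg and 2237 FPKM in untreated Treg. They summed to 1471 FPKM with the Sox12 vector and 2023 FPKM with the mock vector. Depth could be estimated for the vector table alone, where 1 FPKM stood for about 44.9 fragments per kb of transcript with the Sox12 vector and 42.9 with the mock vector. Intervals below that rest on it cover counting error only. In the GENCODE vM21 annotation exons of another gene overlap those of Irf5 (Tnpo3, 411 bases), Irf1 (Gm17334, 135 bases), Irf3 (Bcl2l12, 88 bases) and Irf7 (Phrf1, 45 bases) on the opposite strand and of Irf9 (Rnf31, 123 bases) on the same strand. Whether strand was used in quantification is unknown, so reads from these stretches may be counted for either gene.

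In Treg of DSS-treated mice 7 of the 8 Irf genes were lower than in untreated Treg, against 33.9% of all genes. Irf7 was lower the most (ratio of FPKM 0.647) and Irf1, Irf4, Irf8 and Irf9 by less (ratios of 0.798 to 0.846). In CD4 T cells with the Sox12 vector the family split. Irf1 was higher (ratio 2.93), Irf7 (ratio 0.212) and Irf4 (ratio 0.469) were lower, and Irf3, Irf8 and Irf9 had ratios between 0.962 and 1.07. Irf7 was lower in both experiments.

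**Figure D1:**
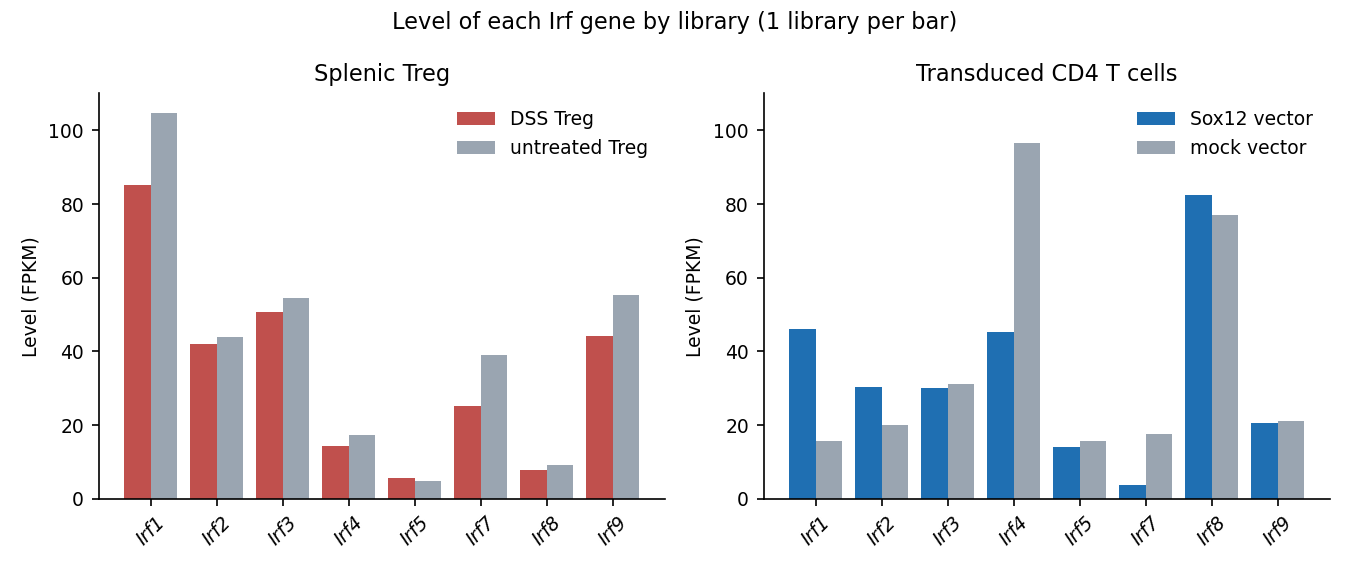
Level of each Irf gene in FPKM, 1 bar per library, with DSS Treg and untreated Treg on the left and the Sox12 and mock vectors on the right. In Treg the order of the bars was nearly the same in both libraries, with Irf1 highest, while in transduced cells Irf4 led with the mock vector and Irf8 with the Sox12 vector.

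The order of levels in Treg was nearly fixed. FPKM is a level per length of transcript, so members can be compared. In DSS Treg Irf1 was highest, followed by Irf3, Irf9, Irf2, Irf7, Irf4, Irf8 and Irf5. In untreated Treg the order was the same, except that Irf9 (55.4 FPKM) stood just above Irf3 (54.5 FPKM). These neighbours differed by less than 1 FPKM and no spread is at hand to separate them. Irf1 made up 31.0% of the summed FPKM of the 8 genes in DSS Treg and 31.8% in untreated Treg. The sum was 275 FPKM in DSS Treg and 329 FPKM in untreated Treg.

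Of the members that act in the type I interferon circuit, Irf7 differed the most in Treg. Irf7, itself an interferon-induced gene, had 25.2 FPKM in DSS Treg and 38.9 FPKM in untreated Treg, a ratio of 0.647 and a change of -0.61 on the log2(FPKM + 1) scale. It ranked 44 from the lowest of 10545 genes that averaged 1 FPKM or more over the 2 libraries, the filter used unless stated otherwise. It was the only member at least 1.5 times lower on that scale, a size that 0.446% of genes reached in that direction. Irf9 had 44.2 FPKM in DSS Treg and 55.4 FPKM in untreated Treg, a change of -0.32, and 1.87% of genes had a lower change. Irf3, whose protein is present before infection, had 50.8 FPKM in DSS Treg and 54.5 FPKM in untreated Treg, a change of -0.10. The level of Irf7 relative to Irf3 was thus 0.495 in DSS Treg and 0.714 in untreated Treg. Irf5, which acts below Toll-like receptors, was the 1 member that was higher, with 5.64 FPKM in DSS Treg and 4.82 FPKM in untreated Treg and a change of 0.19. Of all genes, 14.6% had a higher change than Irf5.

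Irf1 and its competitor Irf2 did not differ alike. Irf1 had 85.2 FPKM in DSS Treg and 104.6 FPKM in untreated Treg, a change of -0.29, and 2.37% of genes had a lower change. Irf2 had 41.9 FPKM in DSS Treg and 44.0 FPKM in untreated Treg, a change of -0.07. The Irf1 level was 2.03 times that of Irf2 in DSS Treg and 2.38 times in untreated Treg.

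The T cell and lymphoid members Irf4 and Irf8 were lower by similar amounts. Irf4 had 14.5 FPKM in DSS Treg and 17.4 FPKM in untreated Treg, a change of -0.25. Irf8 had 7.83 FPKM in DSS Treg and 9.25 FPKM in untreated Treg, a change of -0.22. Their ratio was 1.85 in DSS Treg and 1.88 in untreated Treg. The median change of the 8 members was -0.23, against 0.05 over all genes. In bulk libraries fewer cells of a type and less RNA per cell cannot be told apart.

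**Figure D2:**
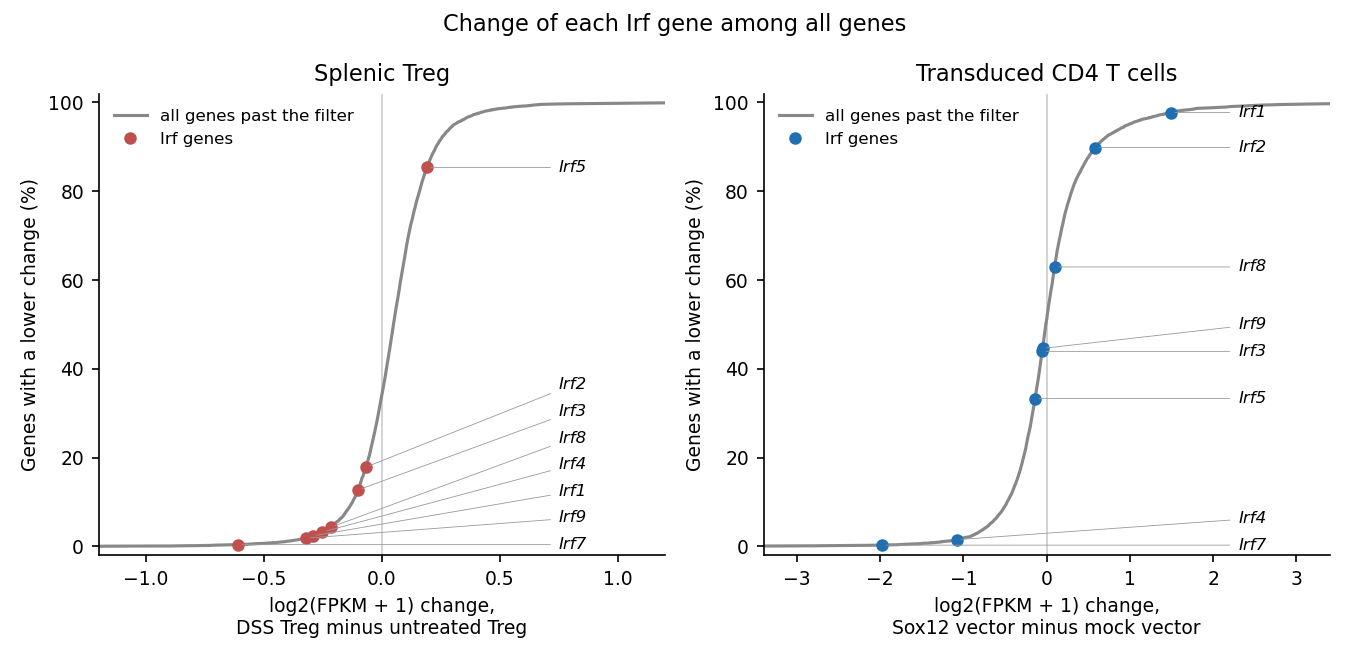
Change of each Irf gene on the log2(FPKM + 1) scale (x axis) against the share of genes with a lower change (y axis, percent), with all genes past the filter as a grey curve. In Treg 7 Irf genes lay at the low end of the curve and Irf5 above its middle, and in transduced cells Irf7 and Irf4 lay at the low end and Irf1 and Irf2 at the high end.

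In transduced CD4 T cells the order of levels differed between the libraries. With the Sox12 vector Irf8 was highest, followed by Irf1, Irf4, Irf2, Irf3, Irf9, Irf5 and Irf7. With the mock vector Irf4 was highest, followed by Irf8, Irf3, Irf9, Irf2, Irf7, Irf1 and Irf5. The closest neighbours were Irf1 and Irf4 (46.0 and 45.3 FPKM) and Irf2 and Irf3 (30.5 and 30.0 FPKM) with the Sox12 vector, and Irf1 and Irf5 (both 15.7 FPKM) with the mock vector. The summed level of the 8 genes was close, at 273 FPKM with the Sox12 vector and 295 FPKM with the mock vector. Its makeup differed, since Irf4 gave 16.6% of it with the Sox12 vector and 32.7% with the mock vector, and Irf1 gave 16.9% with the Sox12 vector and 5.33% with the mock vector.

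Irf1 was the member most above the mock vector. It had 46.0 FPKM with the Sox12 vector and 15.7 FPKM with the mock vector, a log2(FPKM + 1) change of 1.49, and 2.29% of genes had a higher change. These levels stood for about 4412 fragments with the Sox12 vector and 1443 with the mock vector, which gives the ratio of 2.93 an exact 95% interval of 2.76 to 3.11. Alone among the members Irf1 was higher by 2 times or more on that scale, a size that 4.85% of genes reached in that direction. Irf2 had 30.5 FPKM with the Sox12 vector and 20.01 FPKM with the mock vector, a ratio of 1.52 with an interval of 1.44 to 1.61. Its change of 0.58 lay just below the limit for 1.5 times, which 10.1% of genes passed upward. The Irf1 level was 1.51 times that of Irf2 with the Sox12 vector and 0.786 times with the mock vector.

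Irf7 and Irf4 were at least 2 times lower, a size that 1.91% of genes reached in that direction. Irf7 had 3.73 FPKM with the Sox12 vector and 17.6 FPKM with the mock vector, a change of -1.97 that ranked 33 from the lowest among 10822 genes. About 375 fragments with the Sox12 vector and 1689 with the mock vector gave the ratio of 0.212 an exact 95% interval of 0.189 to 0.238. The Irf7 level was 0.125 times that of Irf3 with the Sox12 vector and 0.565 times with the mock vector. Irf4 had 45.3 FPKM with the Sox12 vector and 96.7 FPKM with the mock vector, a change of -1.08, and 1.53% of genes had a lower change. Its ratio of 0.469 had an exact 95% interval of 0.458 to 0.481.

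Irf8, the relative of Irf4, did not follow it. Irf8 had 82.4 FPKM with the Sox12 vector and 77.1 FPKM with the mock vector, a change of 0.10, and the interval of its ratio ran from 1.04 to 1.10. The Irf4 level was 0.550 times that of Irf8 with the Sox12 vector and 1.25 times with the mock vector. Of the markers of dendritic cells and macrophages, Csf1r, Fcgr1, Siglech, Clec9a and Cd209a were listed at 0 in both of these libraries. The 8 macrophage markers summed to 3.53 FPKM with the Sox12 vector and 3.31 FPKM with the mock vector, nearly all of it Cd68, and the 7 dendritic cell markers to 3.51 FPKM with the Sox12 vector and 3.27 FPKM with the mock vector, nearly all of it Zbtb46. The B cell markers summed to 3.59 FPKM with the Sox12 vector and 4.10 FPKM with the mock vector. In Treg the Irf8 level (7.83 FPKM after DSS and 9.25 FPKM without) lay near the summed levels of the listed B cell and macrophage markers, which are given further on. The part of such cells in the level of Irf8 was not tested.

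Irf3, Irf9 and Irf5 had ratios near 1 between the vectors. Irf3 had 30.0 FPKM with the Sox12 vector and 31.2 FPKM with the mock vector, and the interval of its ratio ran from 0.912 to 1.02. Irf9 had 20.5 FPKM with the Sox12 vector and 21.2 FPKM with the mock vector, with an interval of 0.915 to 1.02. Irf5 had 14.2 FPKM with the Sox12 vector and 15.7 FPKM with the mock vector, a change of -0.14. Its interval of 0.839 to 0.971 lay below 1 but covers counting error only. Under the other scalings its change ran from -0.17 to -0.08. Over the 8 members the median change was -0.05, against -0.01 over all genes, so the median hides the split.

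The 3 genes listed as IRF2-binding proteins were close between the libraries of each experiment. In Treg, Irf2bp2 had 26.2 FPKM in DSS Treg and 27.0 FPKM in untreated Treg, and Irf2bpl, listed as 6430527G18Rik, had 36.6 FPKM in DSS Treg and 33.7 FPKM in untreated Treg. In transduced cells Irf2bp2 had 24.3 FPKM with the Sox12 vector and 28.2 FPKM with the mock vector, and Irf2bp1 had 12.2 FPKM with the Sox12 vector and 10.6 FPKM with the mock vector.

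The ligands that act through these factors differed between the experiments. Of 10 interferon genes looked for, Ifng alone was listed in the DSS table, in which every gene reached 1 FPKM in at least 1 library, and Ifng alone passed the filter in the vector table. Ifng, interferon-gamma, had 191 FPKM with the Sox12 vector and 41.3 FPKM with the mock vector, a change of 2.18. Irf1 was also higher in that library, and whether Ifng accounts for it was not tested. Ifng had 4.13 FPKM in DSS Treg and 4.72 FPKM in untreated Treg. The other 9 genes, of type I and III interferons, were in the vector table listed at 0 with the Sox12 vector, and 7 of them at 0 with the mock vector. In that library the highest of them, Ifna4, had 0.0492 FPKM.

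Receptors and signal carriers of interferon were split in both experiments. Of 12 such genes reported here 6 were higher and 6 lower in each experiment, with medians of -0.0085 in Treg and -0.0004 in transduced cells. Over all genes 66.1% were higher in DSS Treg and 48.9% with the Sox12 vector, so the even split was that of all genes between the vectors but not in Treg. Usp18, a brake on the type I interferon receptor, was the 1 gene of these at least 1.5 times lower in Treg and had 7.74 FPKM in DSS Treg and 13.1 FPKM in untreated Treg. Usp18 was also the 1 gene of these at least 1.5 times higher with the Sox12 vector, with 13.6 FPKM there and 7.55 FPKM with the mock vector. Over all genes 0.446% were at least 1.5 times lower in DSS Treg and 10.1% at least 1.5 times higher with the Sox12 vector. Jak1, the kinase shared by these receptors, had 173 FPKM in DSS Treg and 164 FPKM in untreated Treg. The receptor chain Ifngr1 had 123 FPKM in DSS Treg and 100.1 FPKM in untreated Treg. Among the transduced cells Ifngr1 had 64.5 FPKM with the Sox12 vector and 52.8 FPKM with the mock vector, and Jak1 differed by -0.05 on the log2(FPKM + 1) scale.

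Sensors that lead to IRF3, IRF5 and IRF7 were mostly slightly lower. In Treg 16 of the 21 genes past the filter were lower, with a median of -0.05 and none at least 1.5 times lower, against 33.9% lower and a median of 0.05 over all genes. The kinase gene Ikbke, whose product phosphorylates IRF3 and IRF7, had 92.7 FPKM in DSS Treg and 110 FPKM in untreated Treg. Tmem173, the adaptor STING, had 56.2 FPKM in DSS Treg and 56.5 FPKM in untreated Treg. Between the vectors 17 of 21 were lower with Sox12, with a median of -0.17, and 3 were at least 2 times lower. Over all genes 51.1% were lower with Sox12, and 1.91% by 2 times or more. Dhx58 had 4.004 FPKM with the Sox12 vector and 11.98 FPKM with the mock vector, and Ifih1 had 5.19 FPKM with the Sox12 vector and 12.1 FPKM with the mock vector. Both encode RNA sensors that interferon induces. Tlr7 had 0.373 FPKM with the Sox12 vector and 1.75 FPKM with the mock vector.

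**Figure D3:**
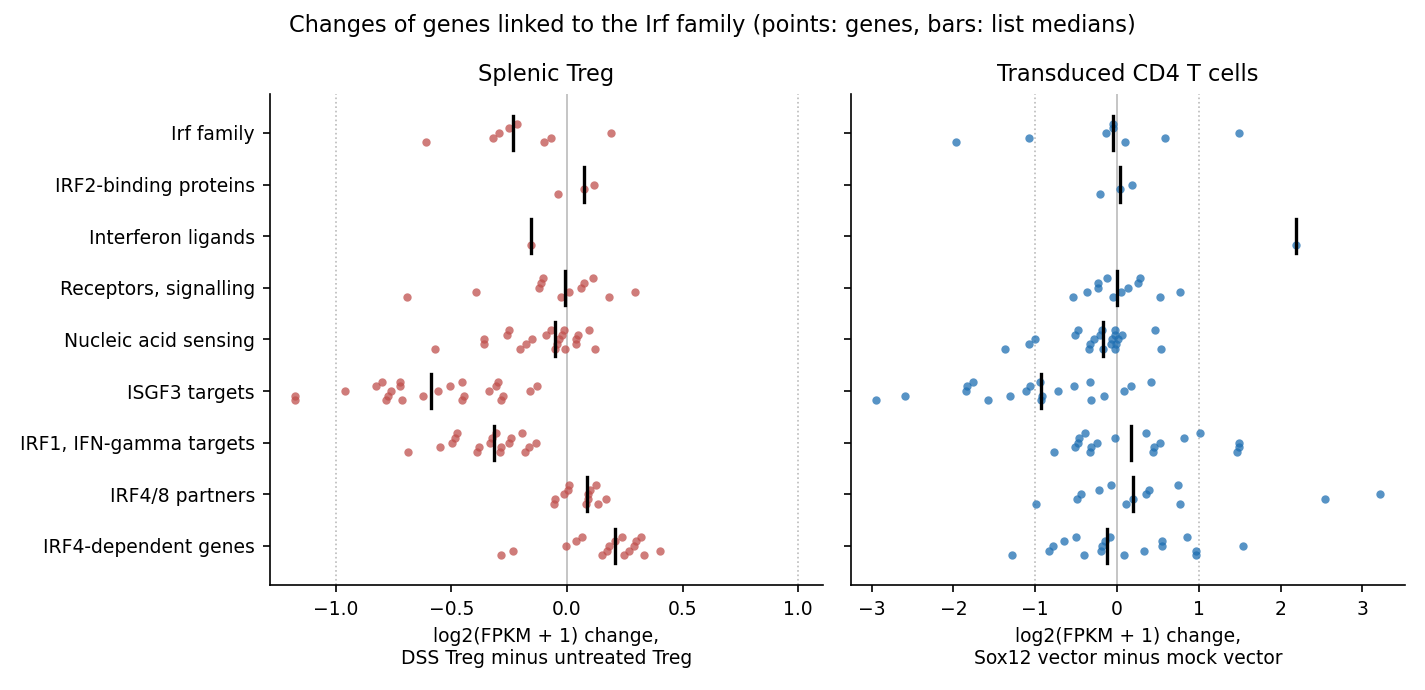
Changes on the log2(FPKM + 1) scale (x axis) of genes past the filter in each list linked to the Irf family, with a point per gene, a black bar at the list median and dotted lines at 2 times. The ISGF3 targets lay lowest in both panels, with medians of -0.59 in Treg and -0.93 in transduced cells, while IRF1 and interferon-gamma targets had medians of -0.32 and 0.17.

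Genes listed as targets of ISGF3 were mostly lower in both experiments, as was Irf7. Whether Irf7 or ISGF3 accounts for this was not tested. In Treg 24 of 24 ISGF3 targets past the filter were lower, with a median of -0.59. Over all genes 33.9% were lower in DSS Treg, and the median was 0.05. Of the targets 2 were at least 2 times lower, a size that 0.0759% of genes reached. These were Ifi44, with 0.802 FPKM in DSS Treg and 3.08 FPKM in untreated Treg, and Oas2, with 1.08 FPKM in DSS Treg and 3.70 FPKM in untreated Treg. In transduced cells 17 of 20 were lower with the Sox12 vector, with a median of -0.93, and 9 were at least 2 times lower, against 51.1% lower and 1.91% at least 2 times lower over all genes. Ifi27l2a had 94.7 FPKM with the Sox12 vector and 736 FPKM with the mock vector. Oas3, an oligoadenylate synthetase, had 2.52 FPKM with the Sox12 vector and 20.2 FPKM with the mock vector. Isg20, an exonuclease, had 9.57 FPKM with the Sox12 vector and 37.0 FPKM with the mock vector, and Trim30a had 10.8 FPKM with the Sox12 vector and 41.3 FPKM with the mock vector. The 3 that were higher were Ifit2 (change 0.41), Sp100 (0.17) and Rtp4 (0.08). Usp18, counted above with the receptors and signal carriers and not in this list, was also higher with the Sox12 vector (0.78).

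The targets of IRF1 and interferon-gamma were lower in DSS Treg and split between the vectors. In Treg 18 of 18 were lower, with a median of -0.32, against 33.9% of all genes and their median of 0.05. The GTPase gene Iigp1 was the 1 at least 1.5 times lower, a size that 0.446% of all genes reached. Iigp1 had 25.7 FPKM in DSS Treg and 42.0 FPKM in untreated Treg. B2m, the light chain of MHC class I, had 2581 FPKM in DSS Treg and 2895 FPKM in untreated Treg, and the immunoproteasome gene Psmb8 had 188 FPKM in DSS Treg and 216 FPKM in untreated Treg. In transduced cells 9 were higher and 9 lower with the Sox12 vector, close to the 48.9% and 51.1% of all genes. The 4 that were at least 2 times higher, a size that 4.85% of all genes reached, all encode interferon-induced GTPases. Gbp2 had 65.2 FPKM with the Sox12 vector and 22.9 FPKM with the mock vector. Gbp4 had 47.0 FPKM with the Sox12 vector and 16.0 FPKM with the mock vector. Gbp3 had 14.8 FPKM with the Sox12 vector and 6.79 FPKM with the mock vector, and Iigp1 had 14.1 FPKM with the Sox12 vector and 4.36 FPKM with the mock vector. Gbp genes have close copies that may share reads. The 9 lower ones had changes between -0.76 and -0.02 and held the antigen processing genes Tap1, Tap2, Tapbp, Psmb8 and Psmb9, with Psmb8 at 209 FPKM with the Sox12 vector and 289 FPKM with the mock vector. Of the same kind Psmb10 was higher, with 42.0 FPKM with the Sox12 vector and 32.5 FPKM with the mock vector, as was Nlrc5, which encodes an activator of MHC class I genes, with 35.3 FPKM with the Sox12 vector and 19.6 FPKM with the mock vector.

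**Figure D4:**
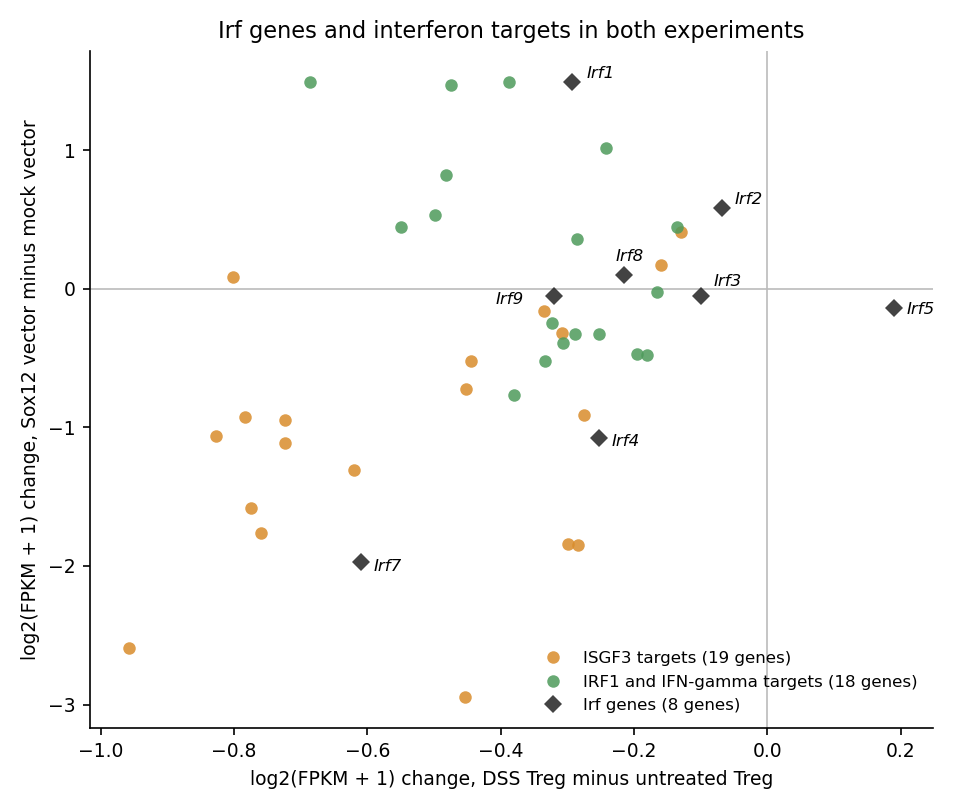
Change in Treg (x axis, DSS minus untreated) against change in transduced cells (y axis, Sox12 minus mock vector), both on the log2(FPKM + 1) scale, for Irf genes and for interferon targets past the filter in both tables. Irf7 lay among the ISGF3 targets at the lower left, Irf1 lay with 3 GTPase targets at the upper left, and Irf4 lay far lower on the y axis than on the x axis.

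Factors that bind DNA with IRF4 or IRF8 differed little in Treg and in both directions between the vectors. In Treg 9 of 12 were higher, with a median of 0.09 and all changes below 0.20, near the 66.1% of all genes that were higher and their median of 0.05. When the median change was set to 0 the number of lower ones was 5 instead of 3. Junb had 258 FPKM in DSS Treg and 235 FPKM in untreated Treg, and Ets1 had 506 FPKM in DSS Treg and 505 FPKM in untreated Treg. In transduced cells 8 of 13 were higher with the Sox12 vector, 2 of them at least 2 times, against 48.9% and 4.85% of all genes. These were Ikzf3, which encodes Aiolos, with 54.2 FPKM with the Sox12 vector and 4.97 FPKM with the mock vector, and Foxp3, with 127 FPKM with the Sox12 vector and 20.9 FPKM with the mock vector. Batf, the AP-1 partner of IRF4 in T cells, had 53.3 FPKM with the Sox12 vector and 40.4 FPKM with the mock vector, while Junb had 155 FPKM with the Sox12 vector and 309 FPKM with the mock vector. Spi1, listed as Sfpi1, which encodes the myeloid partner PU.1, had 0.201 FPKM with the Sox12 vector and 0.0384 FPKM with the mock vector.

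T cell genes listed as dependent on IRF4 were mostly higher in DSS Treg, as were most genes. In Treg 14 of 17 were higher, with a median of 0.21, against 66.1% of all genes and their median of 0.05. Ctla4 had 146 FPKM in DSS Treg and 128 FPKM in untreated Treg, and Il2ra was among the 3 lower with 67.2 FPKM in DSS Treg and 82.0 FPKM in untreated Treg. With the Sox12 vector 8 of 18 were higher and 10 lower, close to the split of all genes, with a median of -0.12 that was -0.0046 without the filter. Havcr2, the coinhibitory receptor TIM-3, had 21.2 FPKM with the Sox12 vector and 6.63 FPKM with the mock vector, and the chemokine receptor gene Ccr6 had 5.48 FPKM with the Sox12 vector and 14.8 FPKM with the mock vector.

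The genes nearest to a member in their pair of changes were looked for among 7312 genes that averaged at least 5 FPKM in both experiments. Those most like Irf7 were Ms4a4c, Isg15 and Trim30a, at distances of 0.17, 0.26 and 0.34 over the 2 comparisons on the log2(FPKM + 1) scale. Isg15, a ubiquitin-like interferon-induced protein, had 13.3 FPKM in DSS Treg and 23.1 FPKM in untreated Treg, and 4.77 FPKM with the Sox12 vector and 18.6 FPKM with the mock vector. Those most like Irf1 were Mdk, Gbp4 and Nkg7, at distances of 0.09 to 0.10. Those most like Irf5 were Deb1, Cbx6 and Vegfb, at distances of 0.01.

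Genes listed as markers of other cell types also differed between the libraries. The 6 basophil and mast cell markers summed to 29.9 FPKM in DSS Treg and 8.20 FPKM in untreated Treg, and the 7 erythroid markers to 523 FPKM in DSS Treg and 351 FPKM in untreated Treg. B cell markers summed to 9.15 FPKM in DSS Treg and 8.67 FPKM in untreated Treg, with 2 of 8 listed, and macrophage markers to 11.1 FPKM in DSS Treg and 13.0 FPKM in untreated Treg, with 3 of 8 listed. The 8 NK and CD8 T cell markers summed to 424 FPKM with the Sox12 vector and 141 FPKM with the mock vector. All 8 were higher, against 48.9% of all genes, and 5 were at least 2 times higher, against 4.85%. The largest parts of the sum were Nkg7 (215 FPKM with the Sox12 vector and 80.0 FPKM with the mock vector) and Prf1 (135 and 30.3 FPKM). In Treg 4 of the 8 markers were listed, with a sum of 26.0 FPKM after DSS and 30.1 FPKM without. All 4 were lower, against 33.9% of all genes. The neutrophil and granule markers summed to 29.2 FPKM in DSS Treg and 20.2 FPKM in untreated Treg, with 5 of 8 listed. Of these Mpo, Elane and Prtn3 were higher in DSS Treg. S100a8 was lower, with 0.678 FPKM in DSS Treg and 1.08 FPKM in untreated Treg, as was S100a9, with 0.449 and 1.19 FPKM. In transduced cells Cd8a had 5.58 FPKM with the Sox12 vector and 0.580 FPKM with the mock vector. Cd8b1, the other CD8 chain, differed less, with 7.68 FPKM with the Sox12 vector and 4.80 FPKM with the mock vector. Whether such cells were present, and their part in the levels of the Irf genes, was not tested.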

How the data were processed

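Total RNA was sequenced from strand-specific SureSelect libraries (per the labels). Cufflinks and build mm9 were used, per the submitters' processing notes. Aligner, annotation, versions and use of strand: not given in the sources used here. The deposited table of the DSS experiment holds FPKM per gene and the authors' fold change, the ratio of DSS to untreated Treg. The deposited vector table holds log2(FPKM + 1) and the authors' log2 difference, and its values were turned back to FPKM. Rows whose names a spreadsheet had turned into dates were left out (16 and 25).

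Changes are differences in log2(FPKM + 1), DSS minus untreated Treg or Sox12 minus mock vector, which understates those of low genes. A gene passed the filter when its 2 libraries averaged 1 FPKM or more. Sums over markers took every listed marker, past the filter or not. No test is possible with single libraries. The steps were tested on simulated data. Python 3.11.15, numpy 2.4.6 and pandas 2.3.3 were used.

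Fragments behind a value of the vector table were estimated from its low values and GENCODE vM21 transcript lengths, as the most frequent value among 4559 genes with a single transcript. The estimate rests on 28 genes in the Sox12 vector library and 25 in the mock vector library. For the Irf genes the length was that of the longest coding transcript. The depth of the DSS table is unknown.

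The members and gene lists were chosen with earlier results of these data known, and some list genes are not reported here. The naming rule takes the Irf genes, Sox12 and Foxp3, and from each list up to 4 genes past 2 times in size or else the 2 with the highest mean. For the Irf genes with the highest and the lowest change in each experiment it adds the 3 genes nearest in their pair of changes. Genes named in the results outside this rule were chosen after their values were seen. These were Usp18, Ifna4, Ifit2, Sp100, Rtp4, Tap1, Tap2, Tapbp, Psmb9, Psmb10, Nlrc5, Batf and Spi1. Others were Cd8a, Cd8b1, Nkg7, Prf1, Psmb8 and Junb between the vectors, and Iigp1 in Treg. Further ones were S100a8, S100a9, Mpo, Elane and Prtn3 in Treg, and single markers listed at 0 or leading a sum. Alternatives were other pseudocounts (0.1 and 5), no filter or one of 5 FPKM, other scalings and a shorter promoter window.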

Additional observations from a re-analysis of the deposited data

How the results depend on the processing

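No paired analysis was possible because each group holds 1 library. With no replicates, a value counts as kept when it moved by at most 0.1 (log2) and stayed on the same side of both size limits, and a count when it stayed within 1.5 times. The changes of the 8 Irf genes kept their values under 73 of 80 alternatives, and none of the changes at least 2 times in size changed sign. With a pseudocount of 0.1 the change with the Sox12 vector was -2.21 for Irf7 and 0.60 for Irf2. With a pseudocount of 5 it was -1.37 for Irf7 and 1.30 for Irf1, and Irf7 in DSS Treg had -0.54, which no longer reached 1.5 times. Irf2 passed 1.5 times with the Sox12 vector when the median change was set to 0 (0.59) and when totals were equalised leaving out the 20 highest genes (0.64), and under that scaling 3 of the 8 Irf genes were lower instead of 5. The ISGF3 target median in Treg was -0.72 and -0.38 with pseudocounts of 0.1 and 5, and -0.45 with a filter of 5 FPKM. In transduced cells it was -1.21, -0.51 and -1.01 in the same order.

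Background counts followed the pseudocount and the filter. In Treg genes at least 2 times higher and lower numbered 39 and 20 with a pseudocount of 0.1, 6 and 3 with a pseudocount of 5, and 8 and 2 with a filter of 5 FPKM, against 20 and 8 as reported. At 1.5 times they numbered 191 and 86, 24 and 19, and 50 and 23, against 92 and 47, and 71 and 65 when the median change was set to 0. In transduced cells 335 genes were at least 2 times lower with a pseudocount of 0.1, 222 higher and 94 lower with a pseudocount of 5, and 322 higher with a filter of 5 FPKM, against 525 and 207. At 1.5 times 642 and 337 were higher and lower with a pseudocount of 5, and 709 and 488 with a filter of 5 FPKM, against 1093 and 745. Within the shorter window, from 100 bases before to 50 after a start, 0 of the 8 Irf genes held the ISRE core, against 1. A change that rests on 1 library per group has no error beyond counting, and in the DSS table not even counting error is known.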

Other observations

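Genes were also grouped by the letters in their own promoter windows, as a description with no test. In Treg 295 genes past the filter had the ISRE core in a window, and 11 of them (3.73%) were at least 1.5 times lower after DSS, against 24 of 7592 genes with any window (0.316%). At 2 times they were 0 of 295 and 2 of 7592. With the Sox12 vector 14 of 300 such genes (4.67%) were at least 2 times lower, against 121 of 7723 (1.57%), while 16 (5.33%) were at least 2 times higher, against 363 (4.70%). At 1.5 times 28 (9.33%) were lower, against 506 (6.55%). The GAS letters TTCNNNGAA stand in windows of Irf1, Irf2 and Irf8. Of genes with them, 37 of 664 (5.57%) were at least 2 times higher with the Sox12 vector, against the same 4.70%. The Sox core ACAAAG stands in windows of Irf7 and Irf9. Of genes with it, 103 of 1270 (8.11%) were higher by 2 times or more with the Sox12 vector, against 4.70%. Lower by as much were 23 (1.81%), against 1.57%. Irf7 was thus in the smaller of those classes, and Irf9 in neither.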
